A study of Sus scrofa with 17 samples.

Results

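The slow fibre contractile genes described here were 10 of the 31908 annotated rows in a count table of piglet muscle RNA: the heavy chains MYH7 and MYH7B, the light chain MYL2, the troponins TNNT1, TNNI1 and TNNC1, the tropomyosin TPM3, the Z-disc gene MYOZ2 and the calcium handling genes ATP2A2 and CASQ2. They were chosen by symbol, with their levels in the 3 diets and their covariation in these same libraries already known. Levels, fold changes and correlations of the 10 members are therefore given as descriptions. Where the number of members called in the fit across all genes is printed, it stands beside the share of all genes called and supports nothing. All 10 passed the filter on low counts.

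The study asked how muscle of weaned piglets responded to a green seaweed and to an enzyme that cuts ulvan, a polysaccharide of its cell wall. Male Large White × Duroc piglets aged 28 days, 10 per diet, were kept singly in metabolic cages, given 5 days of adaptation and pair-fed for 2 weeks. The control diet was based on wheat, maize and soybean meal, UL contained 7% Ulva lactuca in its place, and ULU was UL with 0.01% ulvan lyase. RNA came from the longissimus of 6 control, 6 UL and 5 ULU piglets, with 1 library per piglet. By its methods the study took muscle RNA from 6 piglets of each diet, and 5 of those on ULU are analysed here. The tissue was whole muscle, so more slow fibres and more of an RNA within each slow fibre cannot be told apart.

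Muscle fibres contract slowly or fast according to the isoforms of the sarcomere that they express. Slow, oxidative fibres use the beta heavy chain encoded by MYH7, with the slow light chains, the slow troponin subunits and the calcium pump SERCA2 (ATP2A2), while fast fibres use separate genes for the same roles. The longissimus is a predominantly fast muscle, in which slow fibres are a minority. Calcineurin and NFAT signalling is known to favour the slow programme, and the transcription factor SOX6 is known to restrain slow genes.

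The libraries held 16137365 to 26546810 counted reads. Expression is given as CPM, counts scaled to the size of the library after TMM normalisation, and 3 reads corresponded to 0.113 to 0.186 CPM. Skeletal muscle genes were high in every library, with the skeletal actin ACTA1 at a mean of 67349 CPM in the 6 control libraries. The cardiac troponin TNNI3 did not exceed 0.427 CPM. Its row shares most of its 4985 exonic bases with other rows, and the part of this in its low count was not tested. Other genes of the cardiac sarcomere were higher, with control means of 33.1 CPM for TNNT2 and 660 CPM for ACTC1. Genes of the mitochondrial chromosome held 14.05% to 15.9% of the counted reads in control, 8.64% to 14.8% in UL and 8.002% to 11.6% in ULU, so control and ULU did not overlap. Among the 14203 genes tested with the edgeR quasi-likelihood test, the Benjamini-Hochberg adjusted p-value was under 0.05 for 0 in UL vs control, for 423 in ULU vs control and for 5 in ULU vs UL.

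The 10 members differed widely in abundance. Per kilobase of exon, in control, MYL2 was highest at 1755 ± 685 CPM per kb (SD, n = 6) and TNNC1 followed at 1023 ± 298, with overlapping ranges. TNNI1 (121 ± 38.5), TPM3 (117 ± 38.2) and TNNT1 (98.7 ± 35.6 CPM per kb) formed a lower tier, separated from TNNC1 but not from each other. MYH7 (43.3 ± 11.8), ATP2A2 (42.5 ± 11.6), MYOZ2 (39.9 ± 17.4) and CASQ2 (14.6 ± 6.05 CPM per kb) came next, and each overlapped the next in the order. The exon lengths of the MYH7, MYOZ2 and CASQ2 rows include bases outside these genes (38.9%, 25.3% and 38.1% lie within them in RefSeq), so the places of these genes in the order are uncertain. The tiers also depend on row length, which was 742 bases for MYL2 and 960 for TNNC1. It was 3691 bases for TNNI1, 4347 for TNNT1 and 8977 for TPM3. Without division by length, the control means were 1302 CPM for MYL2, 1054 for TPM3, 982 for TNNC1, 446 for TNNI1 and 429 for TNNT1. MYH7B was far below all other members at 0.0840 ± 0.0344 CPM per kb, and rested on 7 to 58 reads per library. In UL and in ULU the order was the same except that TNNT1 took the third place, above TNNI1 and TPM3, whose ranges overlapped with its own.

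**Figure D1:**
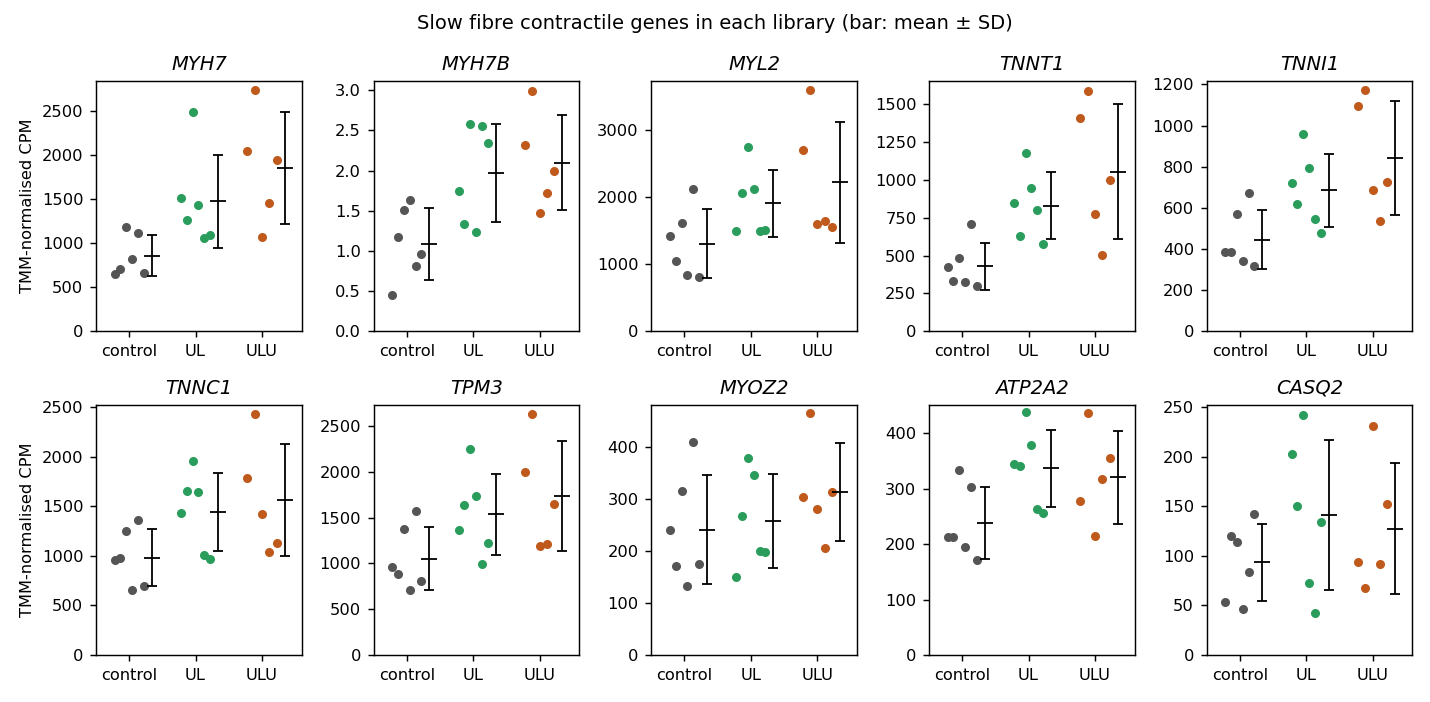
CPM of the 10 slow fibre contractile genes, 1 panel per gene with its own axis from 0, in control (n = 6), UL (n = 6) and ULU (n = 5). Each point is 1 library and the bar beside each group is the mean ± SD. The control points lie lowest on average in every panel, and the ranges of the diets overlap in every panel.

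MYH7 is the beta myosin heavy chain and the defining motor protein of slow fibres. Its row (ENSSSCG00000002029, chromosome 7, 75650445 to 75709232, plus strand, Sscrofa11.1) holds 19881 exonic bases, of which 38.9% lie within MYH7 of RefSeq and others within CMTM5 and an uncharacterised locus. The identifier is also paired with the symbol MYH6, so reads of the alpha and beta heavy chains cannot be told apart in it, and 5371 of its bases are shared with a row on the other strand. The row had 653 CPM in the lowest, 768 CPM in the median and 1187 CPM in the highest control library. In UL the lowest, median and highest were 1058, 1351 and 2495 CPM. The ULU libraries held 1073, 1461, 1949, 2055 and 2740 CPM. All UL and ULU libraries were above the control median, and 4 of each diet were above every control library. The log2(fold change) was 0.78 ± 0.24 (SE) in UL vs control, 1.11 ± 0.25 in ULU vs control and 0.33 ± 0.25 in ULU vs UL.

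MYL2, the slow regulatory light chain that sits on the neck of the MYH7 motor (ENSSSCG00000039710, chromosome 14, 32196883 to 32213760, minus strand), had 803, 1227 and 2115 CPM in the lowest, median and highest control library. Its UL libraries ran from 1493 CPM over a median of 1784 CPM to 2733 CPM. In ULU, MYL2 was at 1548, 1596, 1636, 2702 and 3582 CPM. The 3 lower ULU libraries lay within the control range, and the mean of ULU was raised by the other 2. Its log2(fold change) was 0.55 ± 0.26 in UL vs control, 0.76 ± 0.27 in ULU vs control and 0.22 ± 0.27 in ULU vs UL.

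MYH7B, an ancient relative of MYH7 that yields little protein in most limb and trunk muscle (ENSSSCG00000007288, chromosome 17, 38360585 to 38389321, plus strand), ranged from 0.446 to 1.64 CPM in control, with a median of 1.07 CPM. It ranged from 1.23 to 2.58 CPM in UL, with a median of 2.04 CPM. The ULU libraries held 1.47, 1.72, 1.99, 2.31 and 2.99 CPM. The diets overlapped, and the lowest control library held only 7 reads. Its log2(fold change) was 0.84 ± 0.30 in UL vs control, 0.94 ± 0.31 in ULU vs control and 0.09 ± 0.31 in ULU vs UL. The row extends into TRPC4AP and shares 1469 bases with a row on the other strand.

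The slow troponin subunits form the calcium switch of the thin filament: TNNT1 anchors the complex to tropomyosin, TNNI1 blocks contraction at rest and TNNC1 binds calcium. TNNT1 (ENSSSCG00000025353, chromosome 6, 59347582 to 59365589, minus strand) had the largest fold change of the 10 members in both comparisons with control. In control its lowest, median and highest libraries held 298, 379 and 711 CPM, and in UL they held 574, 826 and 1176 CPM. In ULU, the libraries held 505, 773, 1001, 1408 and 1587 CPM. Of the 6 control libraries, 5 lay below every UL library and below every ULU library, and control 25 lay within both ranges. TNNT1 had a log2(fold change) of 0.95 ± 0.26 in UL vs control, 1.30 ± 0.27 in ULU vs control and 0.35 ± 0.27 in ULU vs UL, which correspond to 1.93-fold, 2.46-fold and 1.27-fold.

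TNNI1 (ENSSSCG00000024061, chromosome 10, 23788279 to 23804083, minus strand) had 319, 387 and 673 CPM in the lowest, median and highest control library, and 477, 670 and 961 CPM in those of UL. In ULU it was at 534, 684, 725, 1096 and 1173 CPM. Control 23 and control 25 lay inside the range of both seaweed diets, while 4 of the 6 control libraries were below all UL and all ULU libraries. The log2(fold change) of TNNI1 was 0.62 ± 0.22 in UL vs control, 0.92 ± 0.23 in ULU vs control and 0.30 ± 0.23 in ULU vs UL.

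TNNC1 (ENSSSCG00000011441, chromosome 13, 34591210 to 34594339, minus strand), the calcium-binding subunit that slow fibres share with the heart, had 651, 966 and 1364 CPM as the lowest, median and highest of control, and 969, 1539 and 1959 CPM in UL. Its ULU libraries held 1043, 1134, 1419, 1788 and 2436 CPM. The spread within ULU was wide, and 2 of its 5 libraries lay within the control range. TNNC1 differed by a log2(fold change) of 0.56 ± 0.23 in UL vs control, 0.67 ± 0.24 in ULU vs control and 0.12 ± 0.24 in ULU vs UL.

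TPM3, the slow tropomyosin that lies along the actin filament (ENSSSCG00000006556, chromosome 4, 95542472 to 95572938, plus strand), had 714, 926 and 1573 CPM in the lowest, median and highest control library. The values for UL were 990, 1502 and 2251 CPM. In ULU, the libraries were at 1185, 1216, 1650, 1997 and 2638 CPM. TPM3 is also expressed in many cells that are not muscle. Its log2(fold change) was 0.54 ± 0.24 in UL vs control, 0.72 ± 0.25 in ULU vs control and 0.18 ± 0.25 in ULU vs UL.

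MYOZ2, which ties calcineurin to alpha-actinin at the Z-disc of slow fibres (ENSSSCG00000032838, chromosome 8, 104574430 to 104609328, minus strand), had the smallest fold change of the members in both comparisons with control. It had 133, 208 and 410 CPM in the lowest, median and highest control library, 151, 233 and 379 CPM in those of UL, and 205, 281, 304, 313 and 465 CPM in ULU. The highest control library was above every UL library, and 3 of the 6 UL libraries exceeded the control median. The log2(fold change) was 0.09 ± 0.27 in UL vs control, 0.38 ± 0.28 in ULU vs control and 0.29 ± 0.28 in ULU vs UL. In UL vs control its direction turned when UL 29, UL 30 or control 24 was left out, to -0.05, -0.02 and -0.03. Only 25.3% of the exonic bases of its row lie within MYOZ2 of RefSeq, and the row sits inside the span of SEC24D.

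ATP2A2 encodes SERCA2, the pump that returns calcium to the reticulum in slow fibres (ENSSSCG00000034386, chromosome 14, 31674757 to 31744973, plus strand). Its lowest, median and highest libraries had 171, 213 and 334 CPM in control and 256, 342 and 438 CPM in UL. The ULU libraries held 214, 277, 318, 356 and 436 CPM. ATP2A2 had a mean in ULU (320 ± 83.3 CPM, SD, n = 5) below that in UL (337 ± 69.4 CPM, SD, n = 6), a difference smaller than either SD. Its log2(fold change) was 0.50 ± 0.19 in UL vs control, 0.43 ± 0.20 in ULU vs control and -0.07 ± 0.20 in ULU vs UL. The last value turned to 0.02 without UL 29 and to 0.04 without ULU 42.

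CASQ2, the calsequestrin that stores calcium in the reticulum of slow and cardiac muscle (ENSSSCG00000006745, chromosome 4, 104918501 to 104999787, plus strand), had the largest standard errors of the 10 members. The lowest, median and highest libraries were at 46.0, 99.3 and 143 CPM in control and at 42.4, 143 and 243 CPM in UL. In ULU the values were 67.4, 92.1, 94.0, 153 and 231 CPM. Control lay inside the range of UL, and 2 of the 5 ULU libraries exceeded the control median. Its log2(fold change) was 0.60 ± 0.38 in UL vs control, 0.45 ± 0.39 in ULU vs control and -0.15 ± 0.40 in ULU vs UL. Without ULU 42 it was 0.12 in ULU vs control, and in ULU vs UL it turned to 0.08 without UL 29 and to 0.01 without ULU 41. The row also spans VANGL1 and an uncharacterised locus, and 38.1% of its exonic bases lie within CASQ2 of RefSeq.

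**Figure D2:**
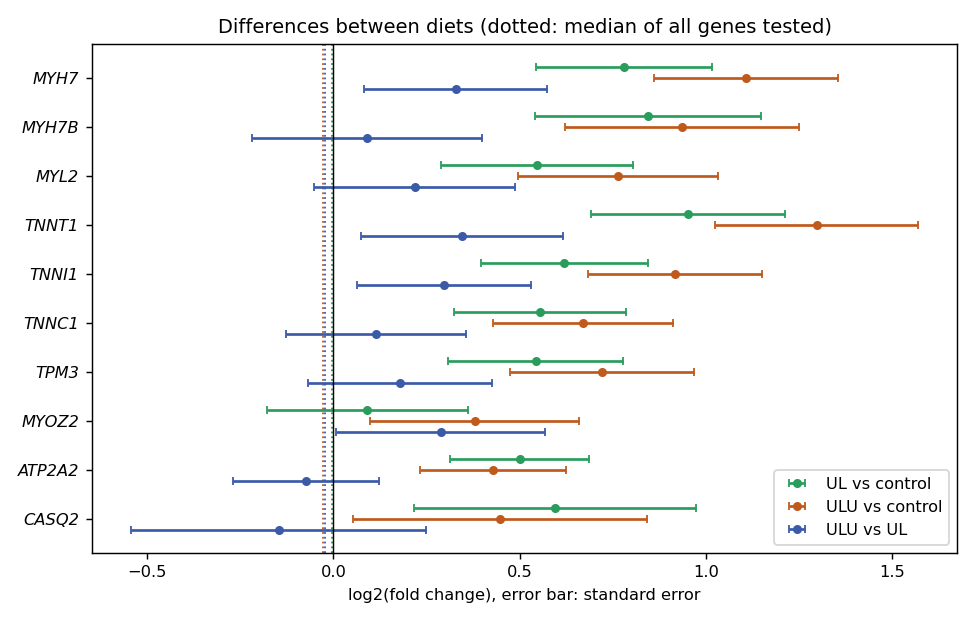
Log2(fold change) of each member, with 1 colour per comparison of diets. Points are the edgeR estimates, error bars are standard errors, and dotted lines mark the median of all 14203 genes tested. TNNT1 and MYH7 lie farthest to the right in ULU vs control, at 1.30 and 1.11, and the ULU vs UL points lie nearest to 0 for all members except MYOZ2.

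Over the 10 members, the log2(fold change) had a median of 0.58 (UL vs control), 0.74 (ULU vs control) and 0.20 (ULU vs UL), beside -0.003, -0.03 and -0.02 for all genes tested. The fold change was above 0 for 10 of 10 members in both comparisons with control, which share the control libraries, and for 8 of 10 in ULU vs UL. These directions belong to the pattern for which the genes were chosen. In ULU vs UL, TNNC1, MYL2, TPM3 and MYH7B turned to -0.10, -0.02, -0.02 and -0.06 without ULU 41, and MYH7B also to -0.02 without UL 30.

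In ULU vs control, 3 of 10 members (TNNT1, MYH7 and TNNI1) had an adjusted p-value under 0.05 with edgeR, beside 2.98% of all genes tested, and TNNT1 and MYH7 also reached a log2(fold change) of 1, beside 0.415% of all genes. No member was called in UL vs control or in ULU vs UL, where 0% and 0.0352% of all genes were. At an unadjusted p-value under 0.05, edgeR counted 8 of 10 members in UL vs control (10.8% of all genes), 8 of 10 in ULU vs control (18.9%) and 0 of 10 in ULU vs UL (10.8%). With DESeq2, 1 member (TNNT1) was called in UL vs control, beside 1.5% of all genes, 6 in ULU vs control, beside 8.14%, and 0 in ULU vs UL, beside 3% of all genes. No member was free of overlap between diets in any comparison, beside 0.852% (UL vs control), 3.39% (ULU vs control) and 1.75% (ULU vs UL) of all genes. The calls in ULU vs control rested on few libraries: 0 members were called without ULU 40 or without ULU 41, 1 without control 22 and 5 without control 25. When each of the 17 libraries was left out in turn, TNNT1 was called in 15 fits, MYH7 in 14 and TNNI1 in 8. Of these 17 fits, here and below, 11 left out a library of control or ULU. The others left out a UL library, which adds to the estimate of the spread but not to the means compared. With the libraries of control and ULU alone in the model, 1 member (MYH7) was called. Fitted without the genes of the mitochondrial chromosome, whose share differed between diets, TNNT1, MYH7 and TNNI1 had log2(fold changes) of 1.30, 1.12 and 0.92, and 3 members were called.

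Apart from CASQ2 and MYH7B, the members moved together from library to library. ULU 41 was the highest of all 17 libraries for 8 of 10 members and UL 29 for the other 2, ATP2A2 and CASQ2, while control 26 was the lowest for 4 members and control 24 for 3. As a mean over the 10 members, relative to the control mean on the log2 CPM scale, control libraries lay between -0.35 and 0.48, UL libraries between 0.23 and 1.21, and ULU libraries between 0.34 and 1.25. Control 23 (0.44) and control 25 (0.48) were above UL 31 (0.23), UL 32 (0.34) and ULU 43 (0.34). Piglets of 1 diet thus spanned 0.83 to 0.98 log2 units on this measure, against diet means of 0.60 in UL and 0.76 in ULU.

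**Figure D3:**
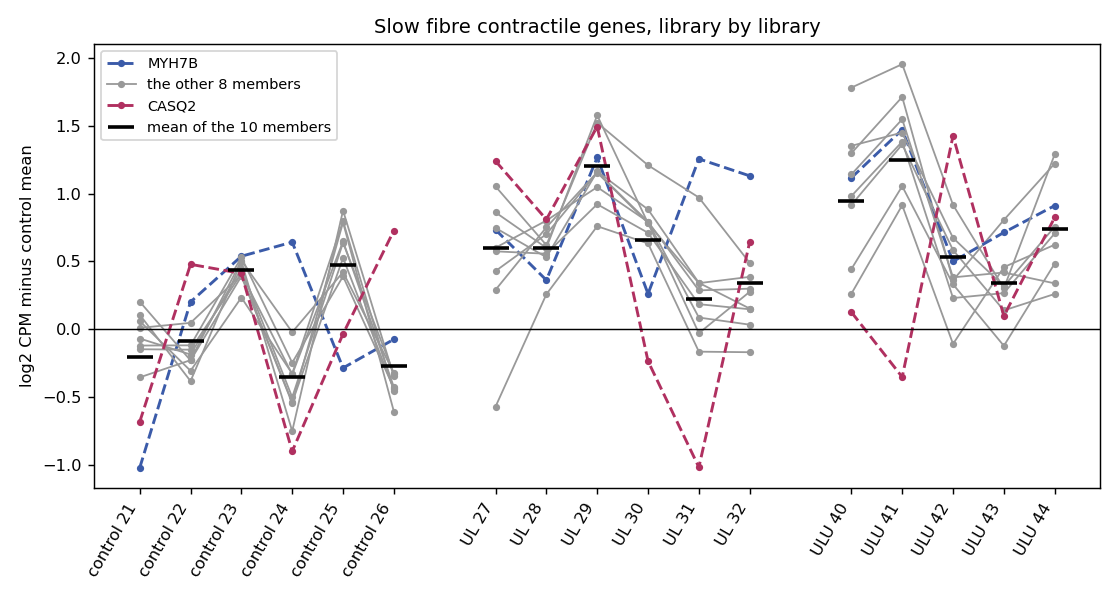
Log2 CPM of each member minus its mean in control, for each library, with lines that join the values of a gene within a diet and imply no order of the piglets. Black bars mark the mean of the 10 members, which is highest in ULU 41 (1.25) and UL 29 (1.21). The grey lines of 8 members run close together, whereas MYH7B and CASQ2, drawn dashed, depart from them.

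To describe this covariation apart from diet, the mean of each diet was subtracted from log2 CPM, and the members were correlated over the 17 libraries. The 45 pairs had a median Pearson's r of 0.73. TNNT1 and TNNI1 formed the closest pair, with an r of 0.94 and a Spearman's rho of 0.93, and r was 0.92 without the 2 libraries farthest from the median. TNNI1 was also close to TNNC1 and TPM3, at 0.92 each.

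After these values were seen, the members were split into 8 genes and 2 exceptions. The 28 pairs among TNNT1, MYH7, TNNC1, TNNI1, MYL2, TPM3, ATP2A2 and MYOZ2 had r between 0.63 and 0.94, with a median of 0.82. Within control alone these pairs had r between 0.68 and 0.98, and within UL alone between 0.52 and 0.98, with 6 libraries each. MYOZ2 belonged to this group, with r of 0.88 with TPM3 and 0.87 with MYL2, although its fold changes against control were the smallest. ATP2A2 was nearest to MYH7, at 0.87, and farthest from TNNT1, at 0.63.

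CASQ2 and MYH7B did not follow the others. CASQ2 had r between -0.11 and 0.14 with the other 9 members, and MYH7B between -0.09 and 0.43, the highest with MYH7. The r of MYH7B with MYH7 was 0.30 without the 2 farthest libraries, 0.41 within control alone and 0.12 within UL alone. Within UL alone, CASQ2 had r between 0.02 and 0.66 with the other members, and within control between -0.10 and 0.23, with 6 libraries each. In UL 31, CASQ2 was the lowest of all libraries at 42.4 CPM, and in ULU 41, where 8 other members were not exceeded in any library, it held 67.4 CPM. MYH7B rested on 7 to 58 reads per library and CASQ2 on at least 746, and the part of counting error in their correlations was not tested. The points of all these correlations share the library, its depth and its scaling.

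**Figure D4:**
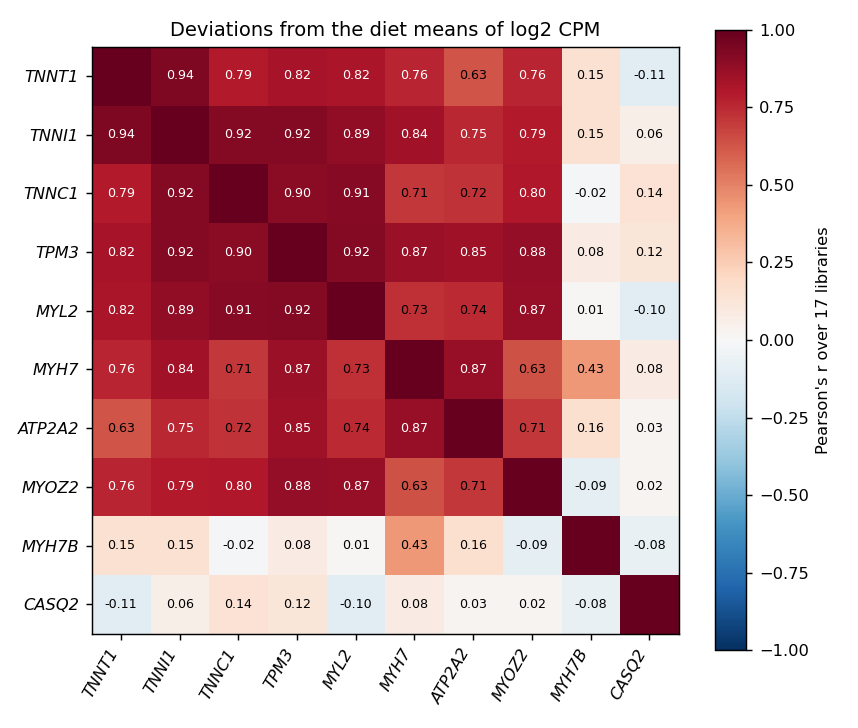
Pearson's r between members over 17 libraries, after subtraction of the diet means from log2 CPM, with the colour scale from -1 to 1. The 8 genes in the upper left have r of at least 0.63 with each other, and the last 2 rows, MYH7B and CASQ2, have r of at most 0.43 with any other member.

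Outside the members, the gene most like them was MYL3, the slow and ventricular essential light chain. Likeness was Pearson's r with the mean of the members' standardised deviations over 17 libraries, ranked over 11084 named genes with a mean of at least 1 CPM. MYL3 had r of 0.94 and a Spearman's rho of 0.87, and r of 0.92 without the 2 farthest libraries. Only 28.4% of the exonic bases of its row lie within MYL3 in RefSeq. Others lie within LOC100516643, and 1008 are shared with another row. DNAJC27 came next with 0.79, then NCKAP5L (0.78), ESYT2 (0.77), LOC100624329 (0.77), ACADL (0.74), KLHL20 (0.73), COMTD1 (0.72), LOC100516649 (0.72) and CLCC1 (0.70). The median over all ranked genes was 0.00. The distance between MYL3 and the rest was larger than that between any other neighbours among these 10.

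The mean of MYL3 rested at 489 ± 211 CPM for control (SD, n = 6), at 736 ± 231 CPM for UL (n = 6) and at 745 ± 216 CPM for ULU (n = 5). Its log2(fold change) was 0.59 ± 0.25 in UL vs control (edgeR adjusted p = 0.41), against 0.61 ± 0.26 in ULU vs control (adjusted p = 0.21). The lowest r were those of SH3PXD2A (-0.73), USP7 (-0.72), RAD23B (-0.72), LOC106505481 (-0.72) and FAM3A (-0.70). With TNNT1 alone, the highest r were 0.82 for DNAJC27, 0.80 for MAB21L1 and 0.79 for MYL3.

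Of 14 further genes of slow fibres, 11 were tested, and their median log2(fold change) was 0.35 in UL vs control, against 0.41 in ULU vs control. In ULU vs control 1 of 11 rose, beside 1.99% of all genes called higher: TPM2, a tropomyosin used in slow and fast fibres. Its mean was 6474 ± 1786 CPM across control libraries (SD, n = 6) and 10430 ± 828 CPM across those of ULU (n = 5). The log2(fold change) was 0.69 ± 0.16 (edgeR adjusted p = 0.029). The ranges of TPM2 did not overlap, and its call was kept in 10 of 17 fits that each left out 1 library and lost with the libraries of both diets alone. Only 3 of the 11 had r above 0.5 with the members: MYL3, PDLIM1 (0.68) and MYBPC1 (0.67), the slow myosin binding protein. None of the 11 was called with edgeR or with DESeq2 in UL vs control or in ULU vs UL, with 3 and 1 at an unadjusted p-value under 0.05 by edgeR (10.8% of all genes in each).

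Some genes of fast fibres also rose in ULU vs control. On the list of fast counterparts, 14 were tested, and 5 had an adjusted p-value under 0.05, all higher in ULU, beside 1.99% of all genes called higher. The fold change was above 0 for 13 of the 14. At an unadjusted p-value under 0.05 edgeR counted 10 of 14 (18.9% of all genes), and DESeq2 called 6, beside 8.14% of all genes. ACTN3, the fast alpha-actinin, had a log2(fold change) of 0.71 ± 0.14 (adjusted p = 0.013), MYBPC2, the fast myosin binding protein, 0.69 ± 0.13 (adjusted p = 0.012), and the fast troponin TNNT3 0.66 ± 0.15 (adjusted p = 0.028). The fast calcium pump ATP2A1 followed with 0.65 ± 0.14 (adjusted p = 0.024), and the row named MYH2, which also holds MYH1 and MYH4, with 0.53 ± 0.13 (adjusted p = 0.040). Of 17 fits that each left out 1 library, ACTN3 and MYBPC2 were called in 17, ATP2A1 in 14, TNNT3 in 11 and the MYH2 row in 8, and MYBPC2 alone of the 5 was called with the libraries of control and ULU only. The list's median was 0.48 in ULU vs control and 0.29 in UL vs control, where 0 were called with edgeR or DESeq2 and 5 of 14 had an unadjusted p-value under 0.05 (10.8% of all genes). TNNI2 (0.56 ± 0.19, adjusted p = 0.28) and TNNT3 (0.43 ± 0.15, adjusted p = 0.30) had the smallest p-values in UL vs control. In ULU vs UL none was called with edgeR, with 4 of 14 at an unadjusted p-value under 0.05 (10.8% of all genes), and DESeq2 called 1, ACTN3, for which edgeR gave 0.46 ± 0.14 (adjusted p = 0.25). MYBPC2 had 0.36 ± 0.13 (adjusted p = 0.34) there.

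Within diets the fast genes did not follow the slow ones. Over the 14 fast counterparts, r with the members' mean deviation had a median of -0.02 and a range of -0.13 to 0.22.

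Each slow gene was also set against its fast counterpart, as the ratio of CPM per kb within a library. In control, TNNC1 stood at 16.4% ± 6.13 (SD, n = 6) of TNNC2, TNNT1 at 13.2% ± 3.14 of TNNT3 and MYL2 at 9.09% ± 2.42 of MYL11. The remaining slow genes were lower, from TPM3 at 6.42% ± 2.04 of TPM1 to CASQ2 at 0.7003% ± 0.392 of CASQ1. MYH7 stood at 4.01% ± 1.05 of the row that holds the fast heavy chains, and both rows hold other loci, whose part in this value was not tested. All these percentages depend on the exon lengths of both rows, such as 4347 bases for TNNT1 and 9537 for TNNT3. Of the exonic bases of the TNNC2 row, 38.6% lie within TNNC2 in RefSeq. The order of the pairs by percentage is therefore uncertain.

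The ratio of TNNT1 to TNNT3 reached 19.4% ± 6.85 for UL (SD, n = 6) and 20.7% ± 8.04 for ULU (n = 5). MYH7 reached 6.11% ± 2.42 and 5.99% ± 1.99 of the fast heavy chain row in these diets. On the log2 scale, ULU exceeded control by 0.59 ± 0.29 (SE) for MYL2 over MYL11, 0.57 ± 0.35 for TNNT1 over TNNT3, 0.56 ± 0.26 for MYH7 over the heavy chain row and 0.37 ± 0.28 for TNNI1 over TNNI2. The differences for TNNC1 (0.14 ± 0.31), MYOZ2 (0.13 ± 0.34), TPM3 (0.11 ± 0.30) and CASQ2 (0.05 ± 0.53) were smaller than their standard errors. ATP2A2 over ATP2A1 went the other way, at -0.21 ± 0.21. With 1 library left out, the lowest and highest differences were 0.37 and 0.73 for MYL2 and 0.42 and 0.87 for TNNT1. They were 0.40 and 0.71 for MYH7 and 0.20 and 0.55 for TNNI1. The lowest came without ULU 41, or for TNNI1 without control 21, and the highest without ULU 43. Leaving out 1 library changed the sign for TNNC1 (-0.02), TPM3 (-0.07) and MYOZ2 (-0.02) without ULU 41. The sign also changed for TPM3 without control 24 (-0.03), and for CASQ2 without ULU 42 (-0.27), control 21 (-0.18), control 24 (-0.15) or ULU 44 (-0.06). The diets overlapped in every ratio, and in ULU vs control the difference in each ratio was smaller in size than the log2(fold change) of its slow gene.

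**Figure D5:**
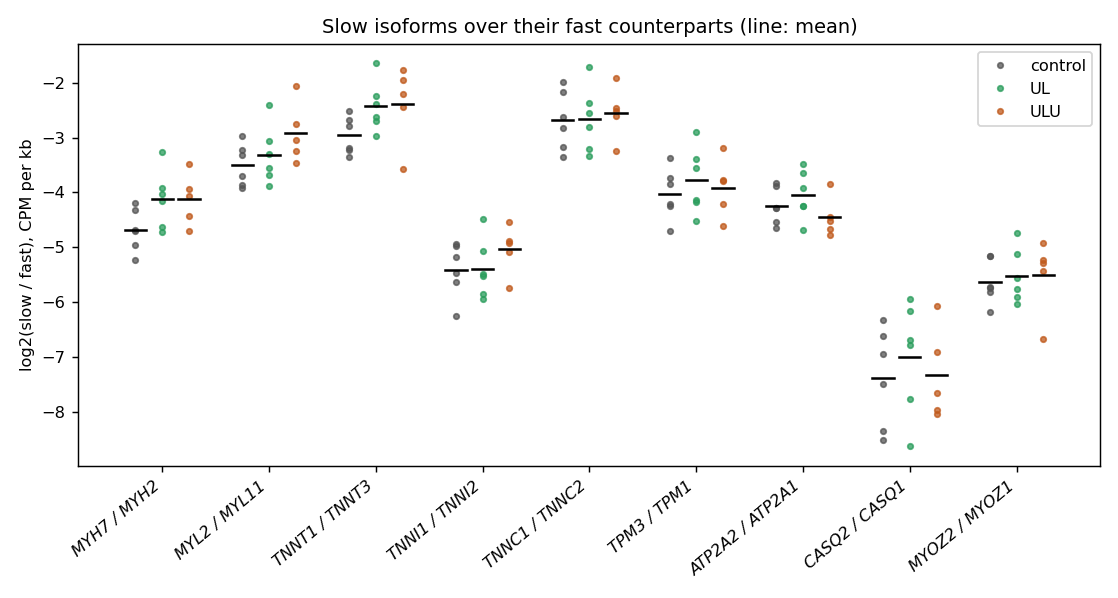
Log2 ratio of each slow gene to its fast counterpart, from CPM per kb, in control, UL and ULU. Points are libraries and black lines are means. The means for MYH7 and TNNT1 are higher in both seaweed diets than in control, by 0.53 to 0.57, those for TNNC1 differ by at most 0.14, and the points of the diets overlap in every pair.

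Among regulators of the slow and fast programmes, 25 of 26 were tested and 2 rose in ULU vs control, beside 1.99% of all genes called higher. PPP3CA, a catalytic subunit of calcineurin, had a mean of 231 ± 19.8 CPM across control libraries (SD, n = 6) and 329 ± 48.9 CPM across those of ULU (n = 5), without overlap. This was a log2(fold change) of 0.51 ± 0.11 (edgeR adjusted p = 0.019). The other calcineurin subunits on the list had control and ULU means of 85.8 and 94.4 CPM (PPP3CB) and 49.6 and 45.7 CPM (PPP3R1). Those of the NFAT genes were 11.2 and 9.52 CPM (NFATC1), 3.29 and 2.42 CPM (NFATC2) and 116 and 156 CPM (NFATC3). SOX6, a repressor of slow genes, had a log2(fold change) of 0.42 ± 0.11 (adjusted p = 0.041). PPP3CA was called in 15 and SOX6 in 7 of 17 fits that each left out 1 library, and neither with the libraries of control and ULU only. None was called with edgeR or DESeq2 in UL vs control, where 3 of 25 had an unadjusted p-value under 0.05 (10.8% of all genes) and PPARGC1B (0.76 ± 0.31, adjusted p = 0.39) and MEF2C (0.40 ± 0.18, adjusted p = 0.44) had the smallest. None was called in ULU vs UL with edgeR and 2 with DESeq2, and 7 of 25 had an unadjusted p-value under 0.05 with edgeR (10.8% of all genes), among them NFATC3 (0.51 ± 0.12, adjusted p = 0.13) and HDAC4 (-1.04 ± 0.27, adjusted p = 0.18). HDAC4 and PPARGC1B each rested on only 10 to 39 reads per library. The list had a median of 0.09 in UL vs control, against 0.26 in ULU vs control.

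No isoform of the developing or cardiac sarcomere was called in any comparison with edgeR or DESeq2, among 5 tested, and 0 of them had an unadjusted p-value under 0.05 with edgeR. The embryonic heavy chain MYH3 averaged 63.6 ± 40.6 CPM across control libraries (SD, n = 6) and 84.0 ± 105.7 CPM across those of ULU (n = 5). The median of MYH3 was 52.4 CPM in control and 46.9 CPM in ULU, where the highest library held 272 CPM. MYL4 (1.73 ± 1.38, adjusted p = 0.53) and ACTC1 (0.64 ± 0.52, adjusted p = 0.54) had the smallest p-values in ULU vs control with edgeR. The median of MYL4 was 1.52 CPM in control and 0.262 CPM in ULU, where the highest library held 89.1 CPM.

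Of 7 general markers of skeletal muscle, edgeR called the MYOD1 row and MYF6 in ULU vs control, beside 2.98% of all genes. The row named MYOD1 rose (0.86 ± 0.19, edgeR adjusted p = 0.026) and MYF6 fell (-1.10 ± 0.21, adjusted p = 0.012). DESeq2 called 5 of the 7, beside 8.14% of all genes, and edgeR counted 5 at an unadjusted p-value under 0.05 (18.9%). In UL vs control neither method called any marker, with 1 of 7 unadjusted by edgeR (10.8% of all genes). For ULU vs UL, edgeR called none and DESeq2 called 1 (3% of all genes), with 1 of 7 unadjusted by edgeR (10.8%). Only 10.978% of the exonic bases of the MYOD1 row lie within MYOD1 in RefSeq. The part of MYOD1 itself in the rise of this row was not tested. Together the 7 summed to 73431 to 121794 CPM in control, 91284 to 128984 CPM in UL and 104570 to 204969 CPM in ULU. Of the 10 genes of these lists called in ULU vs control, 2 (MYBPC2 and MYF6) were also called with the libraries of those diets alone, 3 without ULU 43 and 5 without ULU 40.

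Markers of other cell types were not called in any comparison with edgeR or DESeq2. At an unadjusted p-value under 0.05 edgeR counted 1 adipocyte, 2 fibroblast and 1 leukocyte marker in ULU vs control (18.9% of all genes) and 0 in the other comparisons (10.8% of all genes in each). The 5 adipocyte markers, of which LEP was near 0, summed to 75.9 to 580 CPM in control, 55.0 to 179 CPM in UL and 25.2 to 143 CPM in ULU, and 4 of 4 tested had a fold change below 0 in both comparisons with control, with medians of -0.95 and -1.23. The 5 fibroblast markers summed to 2640 to 5724 CPM, 3310 to 6458 CPM and 2248 to 5724 CPM, with medians of -0.22 and -0.36. The 5 leukocyte markers, with MS4A1 near 0, summed to 25.3 to 97.7 CPM, 33.5 to 65.0 CPM and 14.6 to 77.2 CPM, with medians of -0.11 and -0.71. The 3 erythroid markers had medians of 0.50 and 0.52. The medians in ULU vs control were 0.04 for endothelial, -0.49 for smooth muscle and -0.10 for satellite cell markers. Within diets, r with the members' mean deviation was -0.29 for the summed adipocyte markers, 0.12 for the skeletal muscle markers, -0.25 for the mitochondrial share of reads and 0.05 for the number of counted reads. The part of tissue composition in the differences between diets was not tested.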

How the data were processed

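RNA-seq was carried out on 17 muscle libraries with single reads of 75 nt. The authors trimmed reads with fastp, aligned them to the pig genome with HISAT2 and deposited raw read counts per gene, which are not normalised. The file header names featureCounts 2.0.1 and Ensembl annotation 104 of Sscrofa11.1, and no strand option. The study's methods name Subread 1.5.1 and DESeq2 1.34.0. The authors also deposited, as a signal column, the mean of the counts over all libraries for each gene, which was not used.

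Rows were named by Ensembl identifier (15028) or, failing that, by position in the RefSeq table of the same assembly (4452). Of the members, 6 were named by identifier, and TPM3, MYOZ2 and CASQ2 by position. The MYH7 row was an exception: its identifier is paired with MYH6, and the name MYH7 was set from the choice of the members and its position. Counts were analysed with edgeR 4.0.16 in R 4.3.3: filterByExpr, TMM and the quasi-likelihood test in 1 model of 17 libraries, with Benjamini-Hochberg adjustment over 14203 genes. A call was an adjusted p-value under 0.05. Log2 CPM used a prior count of 2. Correlations were computed with pandas 2.3.3. Scripts were tested on simulated data.

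Members and lists were chosen with earlier results of these data known. Genes named were the members, their fast counterparts, for each list the genes called or otherwise the 2 with the smallest p-value, and the genes most and least like the members. Some genes are named in addition, after their values were seen. Alternatives were DESeq2 1.42.0, other size factors, no filter, 2 diets per model, leaving out each library, and, added after the data were seen, a fit without mitochondrial genes. All pairs of libraries within a diet differed beyond sampling noise (chi-square per gene of at least 20.7). Proteomics data were not analysed here, and 1 gene of the regulator list is not reported here.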

Additional observations from a re-analysis of the deposited data

Results flagged for a closer look

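MYH7 in UL 29 had 2495 CPM, while the other 5 UL libraries lay between 1058 and 1519 CPM. The gap to the nearest library was 0.679 of the range of the diet. It was the single value to stand apart in this way among 30 sets of libraries, 1 for each member and diet, and about 1 in 20 such sets would do so by chance. UL 29 was among the 3 highest libraries for all 10 members. Without UL 29, the log2(fold change) of MYH7 in UL vs control was 0.57 instead of 0.78.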

How the results depend on the processing

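No paired analysis was possible because the diets share no replicate numbers. The number of genes called in UL vs control was 0 with edgeR and 146 with DESeq2, and 0 to 16 when each library was left out, the highest without control 25. In ULU vs control it was 423, against 1037 with DESeq2, 111 with the libraries of the 2 diets only, 228 without the filter on low counts and 59 with the fold change limit, and it ranged from 147 (without ULU 43) to 799 (without control 25) when each library was left out. In ULU vs UL it was 5, against 173, 1, 8 and 2, and 1 to 7 without single libraries. Members called were 0, 3 and 0, against 1, 6 and 0 with DESeq2 and 0, 1 and 0 with the 2 diets only, and they ranged from 0 to 5 in ULU vs control when each library was left out. The direction of the 10 members stayed the same in 220 of 220 alternative values in ULU vs control, 217 of 220 in UL vs control, where MYOZ2 turned, and 211 of 220 in ULU vs UL, where TNNC1, MYL2, TPM3, ATP2A2, MYH7B and CASQ2 turned. These alternative values include fits that left out a library of the diet not compared. Of the 10 list genes called in ULU vs control, 6 were called without the filter and 10 with DESeq2 or its size factors. The median r over the 45 pairs was 0.73, and it was 0.70 with Spearman's rho, 0.73 with DESeq2 size factors and 0.77 when the mean of all libraries was subtracted. The causes of these differences between settings were not tested.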
